A study of Mus musculus with 6 samples.

Results

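The Reg family comprises small secreted proteins built around a C-type lectin fold. In the mouse table its members are Reg1, Reg2, Reg3a, Reg3b, Reg3d, Reg3g and Reg4, and all 7 were found by symbol among 21813 gene symbols. Where a symbol had several transcripts, the one with the highest mean was taken, which mattered only for Reg3d. Islets came from 3 Ucn3 null and 3 wild-type male mice, littermates aged 3 months, and each animal gave 1 library. Ucn3 encodes urocortin 3, a peptide hormone of mature beta cells; the labels give neither the allele nor the strain. The tissue is labelled as islets of mixed cell type taken by collagenase perfusion through the bile duct, while the RNA protocol mentions a cell sort. Values are RPKM, read density scaled for transcript length and library depth, so levels can be compared between genes of different length.

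Acinar cells of the exocrine pancreas secrete Reg1 and Reg2 with the digestive enzymes, and Reg proteins were first studied for their appearance in regenerating islets. Reg3b and Reg3g are lectins that act on bacteria in the gut and are produced by injured pancreas, where cytokines that signal through STAT3 are known to induce them. In bulk tissue, fewer cells of a type and less RNA per cell cannot be told apart.

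The libraries matched their labels. Ucn3 was at 1.61, 1.63 and 1.80 RPKM in null islets, against 136, 157 and 155 RPKM in wild-type islets. Ins1, Ins2, Gcg, Sst and Ppy, the hormone genes that define islets, were present in every library. Depth, estimated from the steps between low values, lay between 42570000 and 51840000 reads. Across 12652 genes that averaged at least 1 RPKM, limma called 2 at an adjusted p of 0.05, or 0.0158%, namely Ucn3 and the pseudogene Marcksl1-ps4, each lower in null; 185 genes, or 1.46%, were higher and 999, or 7.9%, lower at an unadjusted p under 0.05. This balance depended on scaling: with median-ratio size factors 623 genes, or 4.93%, were higher and 490, or 3.87%, lower, and with equal totals after leaving out acinar and Reg genes 609, or 4.81%, were higher and 284, or 2.24%, lower. Each limma p-value sets the difference between group means against the spread among 3 animals a group. That spread was drawn toward the one of genes at a similar level.

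All 7 genes had a higher mean in null than in wild-type islets, and none passed the limma test across all genes. Of the 4 that could be tested, Reg1, Reg2 and Reg3d had a limma unadjusted p under 0.05. Among all tested genes, 1.46% were higher at that level. Both other scalings of the same values also gave 3 of 4, beside 4.93% and 4.81% of all tested genes. Reg1, Reg2, Reg3a and Reg3d were higher in each of the 3 null libraries than in any wild-type library. Such a complete separation with null above wild type was found for 552 of 21813 symbols, or 2.53%. Reg3b, Reg3g and Reg4 overlapped between the genotypes. With either other scaling Reg3b was also separated, and so were 6.8% and 7.16% of all symbols. Reg1, Reg2, Reg3b and Reg3d averaged at least 1 RPKM and were tested, and the other 3 genes were below that level and are given as values. Among the 12652 tested genes, complete separation with null above wild type was found for 241, or 1.9%. Reg1, Reg2 and Reg3b passed the filter on their wild-type means alone, while Reg3d, with a wild-type mean of 0.600 RPKM, passed only through its null libraries. Counts of tested genes that include Reg3d therefore depend in part on this filter.

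**Figure D1:**
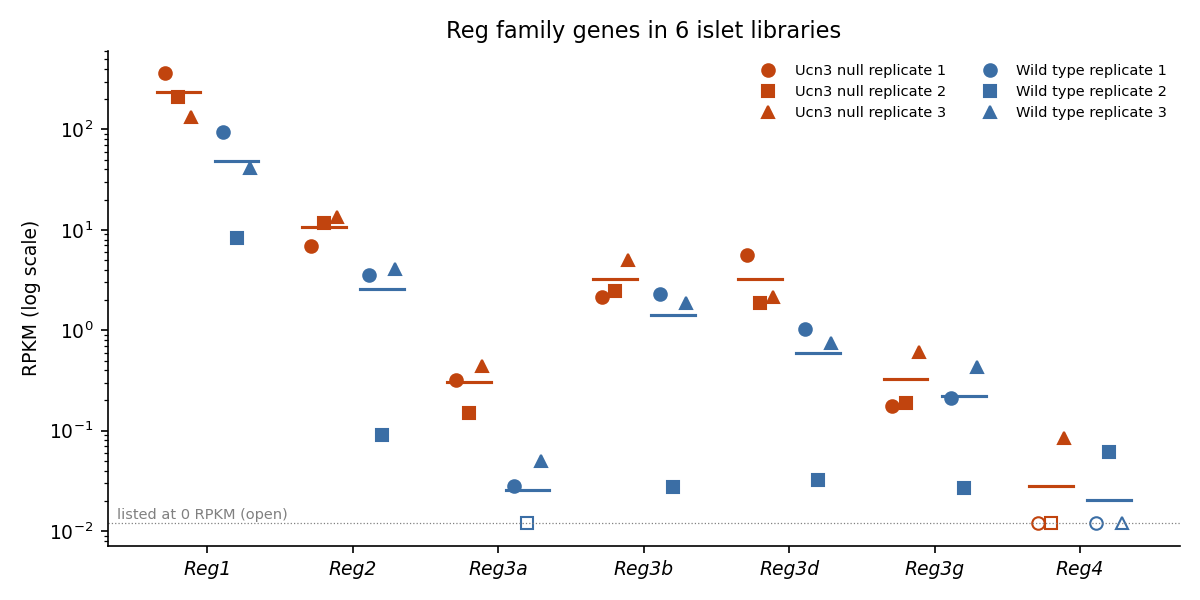
RPKM of the 7 Reg genes on a log axis, with Ucn3 null libraries (orange) left of wild-type libraries (blue) for each gene; symbols mark replicates, horizontal lines the group means, and open symbols on the dotted line values listed at 0. Null and wild-type points are apart for Reg1, Reg2, Reg3a and Reg3d and mixed for Reg3b, Reg3g and Reg4, and wild type replicate 2 is the lowest library for every gene except Reg4.

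The upstream sequences of the tested members are shown here. Whether they bear on the patterns of these genes across the libraries was not tested. The stretches are the 250 bases before the annotated start of Reg1, Reg2, Reg3d and Reg3b, taken from RefSeq on GRCm38.p6, 5′ to 3′ on the strand of the gene. The deposited table was made on another build, mm9, and holds no coordinates. Capitals mark CACCTG, an E-box of the kind bound by class A basic helix-loop-helix dimers, TTCCCA or its complement TGGGAA, the core recognised by RBPJ and RBPJL, the pair CANCTG and TTCCCA at a spacing of 6 bases, and the TATA box TATAAAA.
Reg1, chr6:78425733-78425982, plus strand: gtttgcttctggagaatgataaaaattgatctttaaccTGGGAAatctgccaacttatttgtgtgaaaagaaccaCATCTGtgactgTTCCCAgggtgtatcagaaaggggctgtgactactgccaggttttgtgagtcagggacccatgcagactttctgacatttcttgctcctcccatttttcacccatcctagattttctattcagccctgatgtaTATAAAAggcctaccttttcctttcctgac
Reg2, chr6:78404905-78405154, plus strand: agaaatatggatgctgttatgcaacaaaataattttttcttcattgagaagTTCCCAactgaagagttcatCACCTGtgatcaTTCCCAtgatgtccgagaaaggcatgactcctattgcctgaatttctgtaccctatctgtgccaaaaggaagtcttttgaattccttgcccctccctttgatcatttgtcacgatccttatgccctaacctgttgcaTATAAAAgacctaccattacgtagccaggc
Reg3d, chr6:78378866-78379115, minus strand: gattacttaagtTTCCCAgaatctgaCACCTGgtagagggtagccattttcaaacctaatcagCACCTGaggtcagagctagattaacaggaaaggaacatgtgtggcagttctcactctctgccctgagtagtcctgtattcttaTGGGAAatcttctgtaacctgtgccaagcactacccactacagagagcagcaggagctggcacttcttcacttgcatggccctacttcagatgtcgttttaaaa
Reg3b, chr6:78370635-78370884, plus strand: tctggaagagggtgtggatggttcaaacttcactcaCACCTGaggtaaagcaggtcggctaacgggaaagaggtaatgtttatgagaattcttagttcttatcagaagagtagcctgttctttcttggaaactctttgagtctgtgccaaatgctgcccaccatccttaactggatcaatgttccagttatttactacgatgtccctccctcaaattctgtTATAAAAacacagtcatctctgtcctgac

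In Reg1 and Reg2 an E-box letter pattern and TTCCCA stood 6 bases apart, at bases -175 to -158 of Reg1 and -179 to -162 of Reg2. PTF1, the complex of PTF1A with a class A partner and RBPJ or RBPJL that drives acinar enzyme genes, is known to bind an E-box and such a core together. The spaced pair was written down after these sequences were read, and on either strand it was found in 9 of 32536 promoter windows of 250 bases, or 0.0277%, including these 2. None of the 30 acinar genes with a promoter in the table held it. CACCTG alone stood in 5 of 7 Reg promoters and in 17.3% of all windows, and TTCCCA in 5 of 7 and in 21.6%, both counted on either strand. The STAT letters TTCNNNGAA, which read the same on both strands, were found in Reg3b at bases -129 to -121 and in Reg3d at -238 to -230, where they overlap a TTCCCA, and in 7.04% of all windows. TATAAAA on the gene's own strand stood in Reg1, Reg2, Reg3b and Reg3g, against 2.98% of all windows. These matches describe letters only.

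Of these genes, 6 lie side by side on chromosome 6, in the order Reg3b, Reg3d, Reg3a, Reg2, Reg1 and Reg3g, with only the pseudogene Gm52853 annotated between them, and Reg4 lies on chromosome 3. Of the 4 annotated genes on each side of the chromosome 6 group, only Gm20362 had a row in the table, and it held at most 0.0299 RPKM in any library. Read sharing between members was limited by their sequence. Over the 21 pairs of transcripts, the longest identical run had a median of 12 bases, and the closest pair, Reg3b and Reg3g, shared a run of 35 bases. The read length and how reads matching several genes were counted are not given in the sources used here, so these 2 genes are the least certain.

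Reg1 encodes the pancreatic stone protein, a main secretory product of acinar cells, and it was by far the most abundant member. It was at 363, 211 and 134 RPKM in null replicates 1 to 3, against 94.1, 8.33 and 41.7 RPKM in wild-type replicates 1 to 3. The lowest null library lay 1.42 times above the highest wild-type library, while wild-type libraries differed 11.3-fold among themselves. The mean was 236 ± 117 RPKM in null and 48.1 ± 43.2 RPKM in wild-type islets (SD, n = 3 each), a ratio of 4.90. On the log2(RPKM + 1) scale the difference was 2.70 (SE 0.78, limma adjusted p = 0.49). Reg1 supplied 96.0%, 92.8% and 86.0% of the summed Reg RPKM in null replicates 1 to 3, against 93.0%, 97.2% and 85.4% in wild-type replicates 1 to 3, so its share did not separate the genotypes.

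Reg2 is the closest relative of Reg1 in the mouse and is also known from beta cells under stress. It was at 6.92, 11.8 and 13.4 RPKM in null replicates 1 to 3, against 3.51, 0.0906 and 4.05 RPKM in wild-type replicates 1 to 3. The groups did not overlap, and wild type replicate 2 stood far below all others, at about 3 reads. The other libraries held about 250, 395 and 435 reads in null and 104 and 137 reads in wild-type islets. Means were 10.7 ± 3.39 RPKM in null and 2.55 ± 2.15 RPKM in wild-type islets (SD, n = 3 each), a ratio of 4.20. The log2 difference was 1.96 (SE 0.56, limma adjusted p = 0.49). Within the null group the order of libraries was the reverse of that of Reg1: null replicate 1 was highest for Reg1 and lowest for Reg2. Reg1 was 52.5, 17.9 and 9.94 times as high as Reg2 in null replicates 1 to 3, against 26.8, 92.0 and 10.3 times in wild-type replicates 1 to 3.

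Reg3d encodes a protein related to the islet neogenesis-associated protein of the hamster. It was at 5.62, 1.85 and 2.15 RPKM in null replicates 1 to 3, against 1.03, 0.0324 and 0.741 RPKM in wild-type replicates 1 to 3. The groups did not overlap, and the value in wild type replicate 2 amounts to about 1 read. Means were 3.21 ± 2.10 RPKM in null and 0.600 ± 0.512 RPKM in wild-type islets (SD, n = 3 each), a ratio of 5.35. The log2 difference was 1.34 (SE 0.36, limma adjusted p = 0.49). Reg3d entered the test only through its null libraries, so its p-value is not on the same footing as those of Reg1 and Reg2. A second Reg3d transcript carried proportional values, and with it the log2 difference was 1.23.

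Reg3b, also called pancreatitis-associated protein, was at 2.17, 2.45 and 5.07 RPKM in null replicates 1 to 3, against 2.30, 0.0275 and 1.88 RPKM in wild-type replicates 1 to 3. Null replicate 1 lay below wild type replicate 1, so the groups overlapped, and wild type replicate 2 again held about 1 read. Means were 3.23 ± 1.60 RPKM in null and 1.40 ± 1.21 RPKM in wild-type islets (SD, n = 3 each), with a log2 difference of 0.92 (SE 0.45, limma adjusted p = 0.57). Without wild type replicate 2 the log2 difference of Reg3b was 0.39 (SE 0.27).

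The other members rest on few reads. Reg3a, a lectin of the same branch, was at 0.324, 0.150 and 0.438 RPKM in null replicates 1 to 3, against 0.0282, 0 and 0.0495 RPKM in wild-type replicates 1 to 3. That is about 14, 6 and 17 reads against 1, 0 and 2 reads, and a value of 0 in wild type replicate 2 allows up to 0.0757 RPKM, the level of 3 reads. Over the groups, 37 reads in null stood against 3 in wild-type islets, a ratio per depth of 11.7 with an exact 95% interval of 3.71 to 59.5 that covers counting error only. The groups did not overlap for Reg3a, but with 3 animals a group the exact two-sided permutation test cannot give less than 0.1, which is its value. Reg3g, the gut lectin closest to Reg3b, held about 7, 7 and 22 reads in null replicates 1 to 3, against 7, 1 and 16 reads in wild-type replicates 1 to 3, and the ratio per depth of 1.43 had an interval of 0.828 to 2.50. Reg4, a member known from enteroendocrine cells of the gut, held 0, 0 and 4 reads in null replicates 1 to 3, against 0, 3 and 0 reads in wild-type replicates 1 to 3. At this depth Reg4 was near the limit of detection in both genotypes, and no difference was detectable.

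By the exact two-sided permutation test on mean log2(RPKM + 1), Reg1, Reg2, Reg3a and Reg3d each reached p = 0.1, the smallest that 20 splits allow, Reg3b p = 0.2, Reg3g p = 0.7 and Reg4 p = 1.

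Acinar genes differed between the same libraries. The list of 38 acinar markers held digestive enzymes, granule proteins and transcription factors and no Reg gene, and none of the 38 was at 0 in any library. Their summed level was 7086 to 35320 RPKM in null and 790 to 9580 RPKM in wild-type libraries. The 36 tested markers had a mean log2(RPKM + 1) of 8.11, 7.41 and 6.09 in null replicates 1 to 3, against 6.36, 3.43 and 5.19 in wild-type replicates 1 to 3. Null replicate 3 lay below wild type replicate 1, so the groups overlapped (difference 2.21, exact two-sided permutation p = 0.2). All 36 had a positive difference, with a median of 2.39 against -0.03 over all tested genes. Ptf1a and Nr5a2, also on the list, averaged under 1 RPKM and were not tested. Ptf1a was at 0.701, 0.248 and 0.171 RPKM in null replicates 1 to 3, against 0.186, 0.0275 and 0.0682 RPKM in wild-type replicates 1 to 3. Nr5a2 had a lower mean in null, at 0.739, 0.357 and 0.306 RPKM, against 0.774, 0.512 and 0.393 RPKM in wild-type islets. Of the 36, 4 were separated completely with null above wild type, beside 1.9% of all tested genes. These 4 include Rbpjl, which passed the filter only through its null libraries, with a wild-type mean of 0.468 RPKM. The count of 4 therefore depends in part on this filter. None passed the limma test across all genes, and 35 had an unadjusted p under 0.05, beside 1.46% of all tested genes that were higher at that level. The markers were read in the same 6 libraries, so these 35 are not separate observations. Examples are Rbpjl, an acinar transcription factor, at 2.07 ± 1.0 RPKM in null and 0.468 ± 0.337 RPKM in wild-type islets, and Ctrc, a digestive protease, at 5.53 ± 3.02 RPKM in null and 1.16 ± 0.943 RPKM in wild-type islets (SD, n = 3 each).

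Reg1 moved with these genes almost unit for unit. With genotype and acinar mean in 1 model across all genes, log2 Reg1 changed by 0.998 (SE 0.10) for each unit of the acinar mean, and the remaining difference between null and wild-type islets was 0.49 (SE 0.30, limma adjusted p = 0.97). Set against the acinar mean of its own library, Reg1 lay 0.40, 0.32 and 0.98 log2 units above it in null replicates 1 to 3, against 0.21, -0.20 and 0.23 in wild-type replicates 1 to 3. The groups did not overlap on this measure, but their nearest values, 0.32 in null replicate 2 and 0.23 in wild type replicate 3, were close. The other 6 members overlapped on this measure, and each had a lower mean in null than in wild-type islets. The difference, null minus wild type, was -0.25 for Reg2, -0.87 for Reg3d, -1.29 for Reg3b and -1.87 for Reg3a. Adding 1 RPKM before taking logs compresses genes this low, so these differences are not on the same footing as that of Reg1. With 0.1 RPKM added instead, they were positive for Reg2 (0.50) and Reg3d (0.18) and negative for Reg3b (-0.50) and Reg3a (-0.74). Without Ucn3 null replicate 1 and with 1 RPKM added, the difference of Reg2 was 0.46. The direction on this measure is thus not settled for Reg2 and Reg3d.

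Reg2 and Reg3b followed the acinar level less closely. Over the 6 libraries, which share depth and preparation, Pearson r with the acinar mean was 0.98 for Reg1, 0.91 for Reg3d, 0.79 for Reg2 and 0.67 for Reg3b, and Spearman rho 0.94, 0.83, 0.49 and 0.49 in the same order. Without null replicate 1 and wild type replicate 2, the 2 libraries farthest from the median acinar level, r was 0.93 for Reg1, 0.62 for Reg3d, 0.53 for Reg2 and 0.10 for Reg3b. Null replicate 1 had the highest acinar mean of all libraries, yet it was the lowest null library for both Reg2 and Reg3b. Null replicate 3 and wild type replicate 1 had nearly the same acinar mean, 6.09 and 6.36. At that level Reg2 was at 13.4 RPKM in null replicate 3 and 3.51 RPKM in wild type replicate 1, and Reg3b at 5.07 RPKM in null replicate 3 and 2.30 RPKM in wild type replicate 1. Reg1, by comparison, was at 134 RPKM in null replicate 3 and 94.1 RPKM in wild type replicate 1. This comparison rests on single animals. Null replicate 3 was also the highest of all libraries for Reg2, Reg3a, Reg3b, Reg3g and Reg4, so a trait of that library cannot be set apart. In the model with the acinar mean the slope was 0.37 (SE 0.24) for Reg2, 0.24 (SE 0.21) for Reg3b and 0.38 (SE 0.11) for Reg3d. The added 1 RPKM flattens these 3 slopes too. The remaining differences were 1.13 (SE 0.74) for Reg2, 0.38 (SE 0.63) for Reg3b and 0.51 (SE 0.34) for Reg3d, each with a limma adjusted p of 0.97. The part of exocrine tissue in the Reg values was not tested beyond these numbers.

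**Figure D2:**
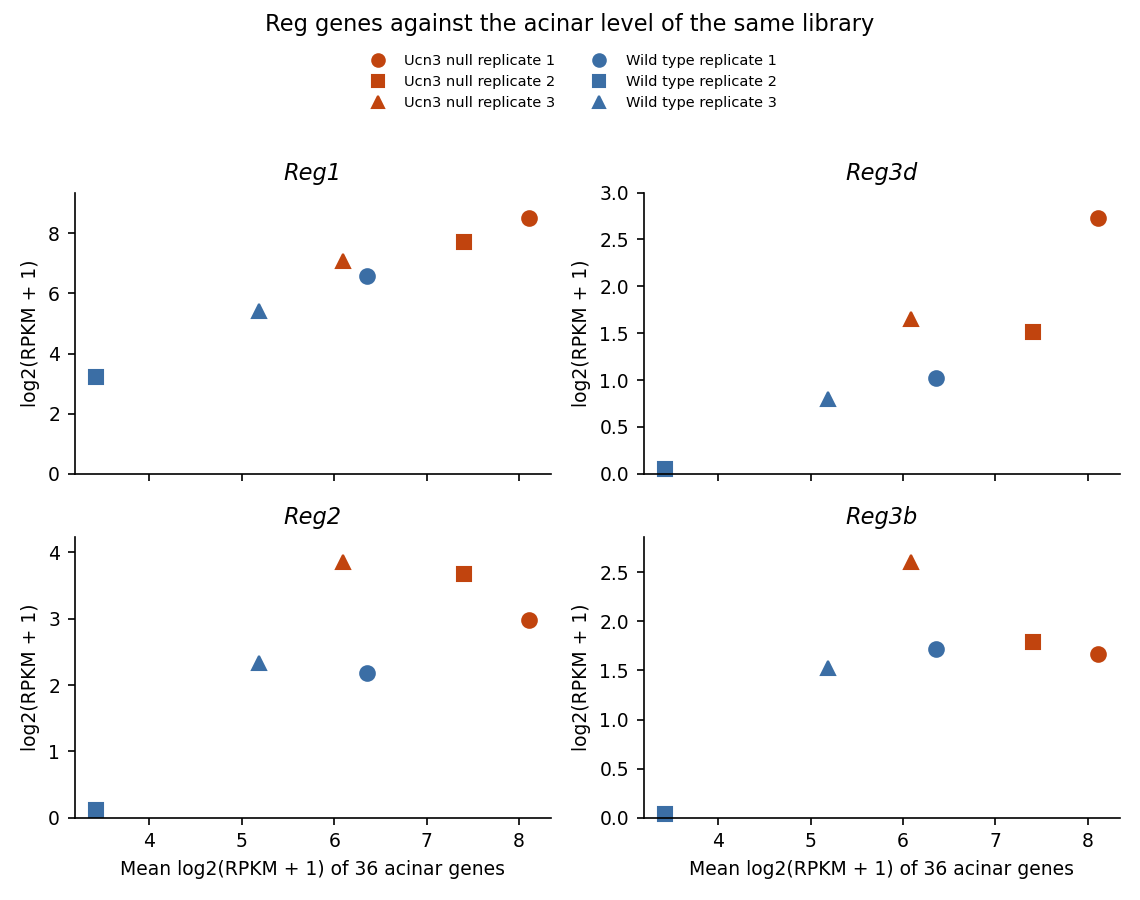
Level of Reg1, Reg3d, Reg2 and Reg3b, as log2(RPKM + 1), against the mean log2(RPKM + 1) of 36 acinar genes in the same library, for 3 Ucn3 null (orange) and 3 wild-type (blue) libraries; each point is 1 animal. Reg1 is lowest in wild type replicate 2 at an acinar mean of 3.43 and highest in null replicate 1 at 8.11, with the other libraries between them, while Reg2 and Reg3b peak in null replicate 3 at 6.09.

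The genes outside the family whose levels followed each Reg gene most closely over the 6 libraries differed in the same manner. For Reg1 they were Pnliprp1, Tln2, Sycn and Clps, with Pearson r of 0.997, 0.994, 0.989 and 0.989. Pnliprp1 encodes a lipase-related protein, Sycn a zymogen granule protein and Clps the cofactor of pancreatic lipase, and 28 of the 50 genes closest to Reg1 were acinar markers. For Reg3d they were Cckar, the receptor through which cholecystokinin acts on acinar cells, the kallikrein Klk1b9, BC020535 and Hist1h2af, at r of 0.969, 0.968, 0.962 and 0.961, and 10 of the closest 50 were acinar markers. For Reg2 they were Slc4a7, Frmd4a, Nln and Wiz, at r of 0.995, 0.991, 0.990 and 0.985. For Reg3b they were Fxyd7, F730043M19Rik, Ncor1 and Syne1, at r of 0.995 to 0.996. None of the 50 genes closest to Reg2 or Reg3b was an acinar marker, and acinar markers made up 36 of the 12652 tested genes. The markers still followed both genes more closely than most genes did. Their median r was 0.787 with Reg2 and 0.669 with Reg3b, against 0.008 and 0.129 over all genes. With Reg1 it was 0.981 and with Reg3d 0.905, against -0.170 and -0.234. Slc4a7 lay between 18.7 and 22.7 RPKM and Ncor1 between 15.8 and 20.1 RPKM. All 8 genes named for Reg2 and Reg3b had their lowest value in wild type replicate 2. With 6 points that share depth and preparation, such values describe likeness in these libraries only.

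Leaving out single libraries moved the sizes and not the directions of the 4 tested genes. Reg1 ranged from 1.77 without wild type replicate 2 to 3.45 without wild type replicate 1, Reg2 from 1.25 to 2.36, Reg3d from 0.96 to 1.57 and Reg3b from 0.39 to 1.23 on the log2 scale. For Reg1, Reg2 and Reg3b the lowest value was the one without wild type replicate 2, the library with the lowest acinar mean.

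**Figure D3:**
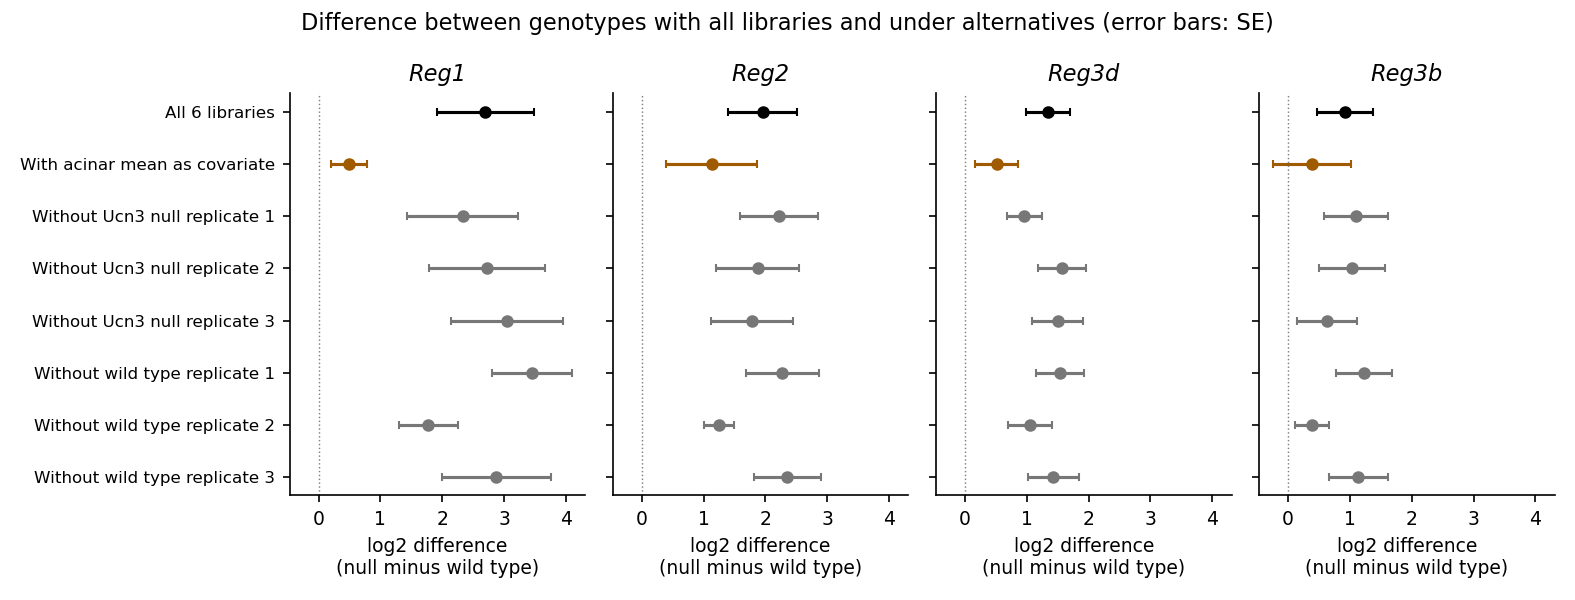
Log2 difference, null minus wild type, of Reg1, Reg2, Reg3d and Reg3b with its SE, from all 6 libraries (black), with the acinar mean as a covariate (brown) and with each library left out (grey). Every point lies right of 0; Reg1 falls to 0.49 with the covariate, against 2.70 without it, and the Reg3b bar crosses 0 with the covariate.

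The receptor and cytokine genes tied to Reg biology were close to level between the genotypes. Of 25 listed genes 17 were tested, and 0 passed in either direction; 7 had a positive and 10 a negative difference, with a median of -0.04 against -0.03 over all tested genes, while 9 and 11 of the 17 were positive with the other scalings, and 0 of the 17 had an unadjusted p under 0.05. Extl3, a proposed Reg receptor, was at 4.93 ± 0.206 RPKM in null and 4.57 ± 0.556 RPKM in wild-type islets. Stat3, the transcription factor downstream of interleukin 6 and interleukin 22, was at 17.6 ± 1.88 RPKM in null and 16.3 ± 1.57 RPKM in wild-type islets. Socs3, a feedback inhibitor that STAT3 induces, was at 10.9, 12.9 and 21.2 RPKM in null replicates 1 to 3, against 17.1, 17.1 and 6.92 RPKM in wild-type replicates 1 to 3, and the groups overlapped. Il6ra, the interleukin 6 receptor chain, was at 27.8 ± 5.43 RPKM in null and 24.0 ± 8.58 RPKM in wild-type islets (SD, n = 3 each for these genes). Il6, Il22 and Il22ra1 averaged under 0.2 RPKM in both genotypes. The 3 genes of this list with the smallest p were Il11ra1, Il6st and Il10rb, all receptor chains, with log2 differences of -0.15, -0.14 and -0.10 and limma adjusted p of 0.58 to 0.65.

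Acute phase and epithelial injury genes did not move together. Of 17 listed genes 7 were tested, 0 passed, and 2 had a positive and 5 a negative difference (median -0.54). In limma 2 higher and 3 lower genes had an unadjusted p under 0.05, beside 1.46% higher and 7.9% lower of all tested genes. Both other scalings gave the same 2 and 3. The shares of all tested genes were then 4.93% and 3.87% with median-ratio size factors, and 4.81% and 2.24% with equal totals. Tff2, a trefoil peptide, was at 46.9, 32.9 and 11.4 RPKM in null replicates 1 to 3, against 15.2, 6.07 and 6.57 RPKM in wild-type replicates 1 to 3, and in each genotype replicate 1 was the highest library, as it was for Reg1. Nupr1, a stress-induced chromatin protein, was at 67.3, 54.2 and 69.6 RPKM in null replicates 1 to 3, against 38.4, 50.3 and 43.0 RPKM in wild-type replicates 1 to 3, and its groups did not overlap (log2 difference 0.53, SE 0.13, limma adjusted p = 0.49). Complement C3 was at 3.98 ± 0.740 RPKM in null and 8.48 ± 3.92 RPKM in wild-type islets, and the chaperone clusterin, Clu, at 67.9 ± 12.8 RPKM in null and 99.5 ± 17.0 RPKM in wild-type islets (SD, n = 3 each). Lcn2, an acute phase lipocalin, was at 0.476, 0.343 and 0.0759 RPKM in null replicates 1 to 3, against 8.87, 1.25 and 0.558 RPKM in wild-type replicates 1 to 3 (limma adjusted p = 0.54). C3 and Lcn2 were lower in every null library than in any wild-type library, as were 13.2% of all tested genes. The opposite separation, seen for Nupr1, was found for 1.9% of them. Lcn2, with a null mean of 0.298 RPKM, passed the filter only through its wild-type libraries. Counts of tested genes that include Lcn2 therefore depend in part on this filter. The other secreted proteins with a C-type lectin fold were low: of 10 listed, Colec12 and Clec11a averaged at least 1 RPKM, and the groups overlapped for both, with log2 differences of -0.21 and 0.02.

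Markers of other cells in the preparation went in both directions beside the higher Reg values. Of 13 tested ductal markers 12 had a negative difference, with summed levels of 288 to 347 RPKM in null and 334 to 440 RPKM in wild-type libraries; Krt19, a duct keratin, was at 7.41 ± 4.86 RPKM in null and 18.2 ± 4.76 RPKM in wild-type islets, and Prom1, the 1 with a positive difference, at 28.7 ± 1.17 RPKM in null and 18.1 ± 4.65 RPKM in wild-type islets (SD, n = 3 each). Macrophage markers summed to 139 to 200 RPKM in null and 148 to 265 RPKM in wild-type libraries, with 11 of 13 tested markers negative. Summed endothelial markers lay at 89.6 to 101 RPKM in null and 90.5 to 99.6 RPKM in wild-type libraries, with 5 of 9 markers positive, and 7 of 9 with either other scaling. Among 14 beta cell markers 7 differences were positive and 7 negative, and 10 and 11 were positive with the other scalings. Abcc8, Glp1r and Nkx6-1 were higher in every null library than in any wild-type library under each scaling. Over all symbols this separation was found for 2.53% as reported and for 6.8% and 7.16% with the other scalings. Nkx6-1, a beta cell transcription factor, was at 63.6, 72.8 and 75.1 RPKM in null replicates 1 to 3, against 61.4, 56.6 and 56.0 RPKM in wild-type replicates 1 to 3 (log2 difference 0.27, limma adjusted p = 0.49). Glp1r, the receptor of glucagon-like peptide 1, was at 101, 132 and 118 RPKM in null replicates 1 to 3, against 93.5, 75.2 and 98.1 RPKM in wild-type replicates 1 to 3 (log2 difference 0.39, limma adjusted p = 0.49). Among 7 alpha cell markers 3 were positive and 4 negative, and 4 and 5 were positive with the other scalings. The 3 tested delta cell markers, led by Hhex, were lower in every null library than in any wild-type library, with a median difference of -0.83. With values as reported, the same held for 4 of 13 ductal and 1 of 13 macrophage markers and for 1 beta cell marker, Ucn3. With either other scaling it held for only 1 of 13 ductal and 0 of 13 macrophage markers. The number of negative differences was then still 12 of 13 for ductal and was 10 of 13 for macrophage markers. In the other direction, 1 ductal and 0 macrophage markers were separated under each scaling. Among all 12652 tested genes, separation with null below wild type was found for 1676, or 13.2%, with values as reported. The 2 PP cell and 5 red blood cell markers were all negative, as were 4 of 5 lymphocyte markers, while 5 of 6 stellate and fibroblast markers were positive. None of these lists had a member past the threshold across all genes apart from Ucn3. Their part in the Reg values was not tested.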

How the data were processed

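Islet RNA of 3 Ucn3 null and 3 wild-type mice was sequenced from TruSeq libraries, per the labels' protocols. The authors deposited RPKM, 1 row per RefSeq transcript; the submitters' processing notes name STAR, bedtools, DESeq and mm9, without versions or roles. Of 28129 rows, 117 were empty and 1, with a word in place of a number, was left out. The transcript with the highest mean was kept for each of 21813 symbols, and genes averaging at least 1 RPKM were tested with limma 3.58.1 in R 4.3.3 on log2(RPKM + 1), with genotype as the only term, a mean trend and Benjamini-Hochberg adjustment over 12652 genes; fold changes of low genes are understated on this scale. The fit was tested on simulated data.

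Members and gene lists were chosen with earlier results of these data known. Named genes are all Reg genes, the 4 genes most like each tested one, up to 3 of each list with the smallest p, hormone genes and Ucn3; others named from the lists, such as Abcc8, Extl3, Stat3, Socs3, Il6ra, Tff2 and Lcn2, and the neighbour Gm20362 were chosen after their values were seen. Depth was the value that made low RPKM times transcript length whole; this held within 0.1 read for 77.1% to 80.5% of them, so read numbers are estimates. Lengths came from GENCODE M21 (97.5% of rows) and promoters from RefSeq. Correlations between libraries were 0.981 to 0.994, and no libraries held identical values. Figures used matplotlib 3.10.9 in Python 3.11.15.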

Additional observations from a re-analysis of the deposited data

How the results depend on the processing

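The differences of Reg1, Reg2, Reg3b and Reg3d stayed positive and short of the threshold under every alternative that gave a value: Reg1 from 0.49 to 3.45 over 14 alternatives, Reg2 from 1.13 to 2.88 over 14, Reg3d from 0.51 to 2.55 and Reg3b from 0.38 to 1.87 over 13 each, with limma adjusted p from 0.26 to 0.97. The lowest of each came from the acinar covariate. A pseudocount of 0.1 RPKM gave the highest for Reg2, Reg3d and Reg3b and moved Reg3a to 1.63, against 0.34; the larger pseudocount flattens values of few reads. At a mean of 5 RPKM, Reg3b and Reg3d were not tested.

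With 1 library left out, the exact permutation differences ran from -0.036 to 0.232 for Reg3g and from -0.0285 to 0.039 for Reg4, so their direction is not settled. The count of genes past the threshold, 2 with all libraries, was 4 without a filter, 1 with the filter at a mean of 5 RPKM and 1 with the acinar covariate, and ran from 1 to 5 with 1 library left out, being highest when Ucn3 null replicate 1 was dropped and lowest when replicate 2 of that genotype was. The cause of these shifts was not tested. In alternatives chosen after seeing the data, as were the counts over gene lists under other scalings, the number of Reg genes with every null library above every wild-type library was 4 or 5 of 7. Reg3b joined with both scalings (5 genes; 6.8% and 7.16% of all symbols) and without Ucn3 null replicate 1 or wild type replicate 1 (10.1% and 9.05%). No paired analysis was possible because the labels do not match animals across genotypes. Reads limit Reg3a, Reg3g and Reg4.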
